A study of Caenorhabditis elegans with 2 samples.

Results

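Binding of the homeodomain protein UNC-62 was examined at the 8 core genes of insulin signalling in Caenorhabditis elegans, out of 19973 protein-coding genes on the nuclear chromosomes. The genes were taken by name as the receptor daf-2, the lipid kinase age-1, the lipid phosphatase daf-18, the protein kinases pdk-1, akt-1, akt-2 and sgk-1, and the transcription factor daf-16. For each gene, every peak was collected whose summit (the base the authors' peak file marks as the top) lay in the gene or within 5000 bp of either end, a stretch called the window below. Chromatin immunoprecipitation followed by sequencing (ChIP-seq) had been done on whole second-stage (L2) larvae, males and females pooled, of strain OP600. These worms carry the allele unc119(ed3) and the transgene wgIs600, which holds unc119 and unc-62 with a TY1 EGFP FLAG tag; unc-62 is listed as the antibody target, and the description names the tagged protein. The worms' age is given as unknown. All samples belong to 1 group with 2 biological replicates, and no untreated or wild-type group was compared. The replicates are separate biosamples, and whether they were grown separately is not stated. Since whole worms were used, binding in few cells and weak binding in many cells cannot be told apart, and the tissues are not known.

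In this pathway, insulin-like peptides act on DAF-2, the worm's insulin and insulin-like growth factor receptor. The receptor activates the phosphoinositide 3-kinase AGE-1, whose lipid product recruits PDK-1 and the AKT kinases, and DAF-18 removes that product again. The AKT kinases phosphorylate DAF-16, a FOXO transcription factor, and hold it in the cytoplasm; with less signalling DAF-16 enters the nucleus, and this branch is known for its part in dauer formation, stress resistance and lifespan.

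daf-16 was the only gene of the 8 with a reproducible peak, meaning one in the authors' optimal set from an irreproducible discovery rate (IDR) procedure, which compares ranks between replicates. Among all protein-coding genes, 4.94% had such a peak in the window, so a count of 1 of 8 was close to the background. The next genes in order of their strongest signal were pdk-1, akt-2 and sgk-1, each with an upstream peak below the reproducible set. daf-2, akt-1, age-1 and daf-18 followed, and the strongest peaks of daf-2, akt-1 and daf-18 overlapped a peak in 1 replicate each. The 8 windows together held 53 peaks of the pooled candidate list over 188 kb, or 0.282 per kb. The median of the 8 genes was 0.271 per kb, and that of all protein-coding genes was 0.264 per kb.

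The authors deposited, on genome build ce11, 414 reproducible peaks, 28005 candidates called on both replicates pooled, and 30000 candidates for each replicate. The reproducible set was exactly the 414 pooled candidates of highest signal, so a place in it reflects the pooled signal and does not by itself say how high the peak ranked in each replicate. The candidate lists also contain background that serves as input for the IDR step, and a candidate was found near 94.9% of protein-coding genes, so the presence of a candidate alone says little. Each peak carries a signal value made by the authors with a control file. Its scale differs between lists (medians of 9.02 in the pooled list, 6.11 in replicate 1 and 4.28 in replicate 2), so peaks were compared across lists by their rank. The number of reads behind each peak is unknown, and peaks of 1 experiment are not replicates, so no test was made between the 8 genes and other genes.

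**Figure D1:**
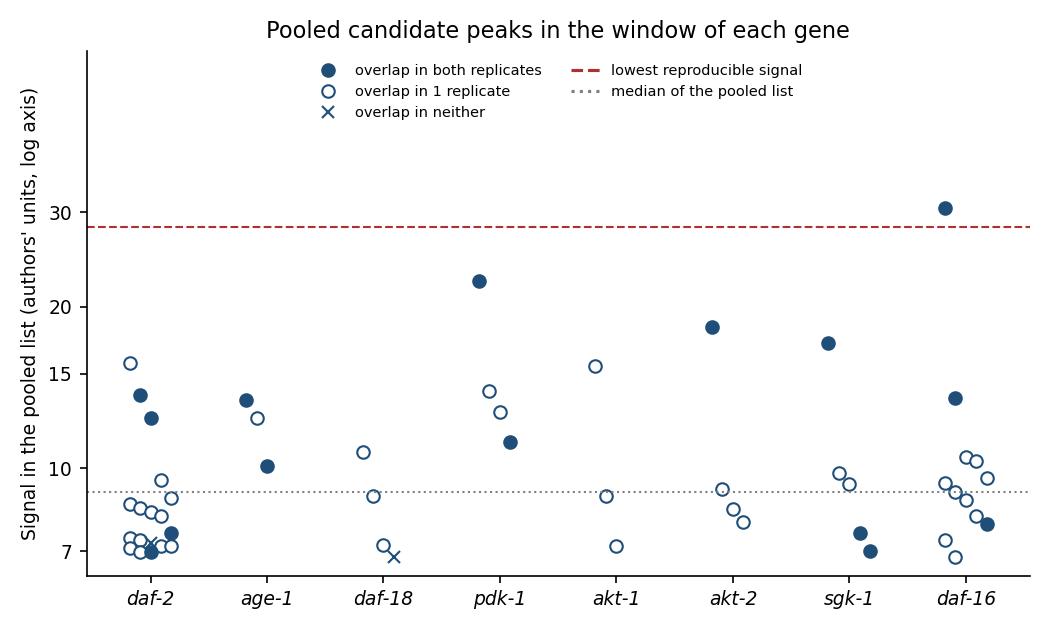
Signal of each of the 53 pooled candidates (vertical log axis, authors' units) in the windows of the 8 genes. Filled circles overlap a candidate in both replicates, open circles in 1 and crosses in neither; the dashed line is the lowest reproducible signal, 28.2, and the dotted line the median of all pooled candidates, 9.02. A single point, at daf-16, lies above the dashed line.

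daf-2 is the longest of the genes, with 46.3 kb on the minus strand (chromosome III 2994514 to 3040846), 7 annotated transcripts and 7 different 5' ends. Its window held 18 pooled candidates, whose signals ran from 6.96 to 15.7 with a median of 7.85, below the median of the whole list. The strongest lay in an intron, 2615 bp upstream of the 5' end of transcript Y55D5A.5d.1 (3025544 to 3025879). It ranked 2003 in the pooled list and 2541 in replicate 1, and overlapped no candidate of replicate 2. The highest replicate 1 candidate of the window, at rank 2082, lay elsewhere, in an exon near 3006918, where the pooled signal was 9.51 and the pooled stretch was 21.9% G or C, the lowest of the 53. A second intronic candidate, with a signal of 13.7, overlapped one in each replicate, but at ranks 14918 and 15645. The third, with a signal of 12.4 at pooled rank 4661, lay 4653 bp inside the longest transcript. It ranked 6822 in replicate 1 and 6419 in replicate 2.

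The candidates near the 5' ends of daf-2 differed between the lists. The pooled candidate nearest to the 5' end of the longest transcript, Y55D5A.5c.1, lay 1023 bp upstream with a signal of 8.79. It was seen in replicate 1 at rank 7336 and not in replicate 2. The only pooled candidate within a promoter span (1000 bp upstream to 200 bp downstream of a 5' end) lay 133 bp upstream of Y55D5A.5a.1, had a signal of 7.25, and overlapped no candidate of either replicate. In replicate 2, however, the highest candidate of the whole daf-2 window lay in a promoter span, 998 bp upstream of Y55D5A.5g.1, with a signal of 6.50 at rank 4650. A second replicate 2 candidate lay 69 bp past the same 5' end at rank 13055. Replicate 1 had 1 candidate in a promoter span, 668 bp upstream of Y55D5A.5f.1, at rank 25014. Replicate 1 held 17 candidates in the daf-2 window and replicate 2 held 12.

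age-1 (chromosome II 11519328 to 11527054, minus strand) had 3 pooled candidates, with signals of 13.4, 12.4 and 10.1. The first 2 lay in coding exons. The strongest ranked 3541 in the pooled list, 6586 in replicate 1 and 9777 in replicate 2, and its nearest protein-coding 5' end, 2213 bp away, belonged to Y62F5A.10. The weakest lay in an intron, 998 bp upstream of the shorter transcript B0334.8b.1, and also in the annotated 5' UTR of Y62F5A.10, 44 bp from that gene's 5' end. It therefore could not be assigned to age-1 by position.

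daf-18 (chromosome IV 420011 to 425177, minus strand), which opposes age-1, had the lowest top signal of the 8 genes. Its strongest pooled candidate, in a coding exon, had a signal of 10.7 and ranked 8219. The same place ranked 2235 in replicate 2 and overlapped no candidate of replicate 1. None of the 4 pooled candidates at daf-18 overlapped candidates in both replicates. The highest replicate 2 candidate of the window, at rank 2021, lay downstream of daf-18 in an intron of eri-1, and eri-1 was also the nearest 5' end to the strongest pooled candidate.

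pdk-1, which phosphorylates and activates the AKT kinases, had the strongest candidate after daf-16. It lay 1418 bp upstream of transcript H42K12.1b.1 on the plus strand (chromosome X 1319758 to 1320093), with the 5' end of pdk-1 the nearest of any protein-coding gene. Its signal was 22.3 in the pooled list (rank 738), 16.7 in replicate 1 (rank 569) and 6.92 in replicate 2 (rank 3713). The summits in the replicates lay 7 and 55 bp from the pooled summit. A second pooled candidate, 1217 bp upstream with a signal of 11.2, overlapped the same replicate 2 candidate, so the pair of pooled candidates rests on 1 replicate 2 candidate. In replicate 2 the highest candidate of the window was instead an intronic one, 1888 bp downstream of the 5' end of H42K12.1a.1, with a signal of 8.72 at rank 1501. The pooled counterpart of that intronic candidate had a signal of 13.9 and overlapped no candidate of replicate 1.

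akt-2 encodes one of the pair of AKT kinases, and its strongest candidate lay 645 bp upstream of the 5' end shared by both transcripts (chromosome X 14146887 to 14147222). In the pooled list it was the only one of the 8 genes whose strongest candidate fell in a promoter span of its own transcripts. In replicate 2 the strongest daf-2 candidate did so too. The akt-2 signal was 18.3 in the pooled list. The candidate ranked 1209 in the pooled list, 1875 in replicate 1 and 2906 in replicate 2. The other 3 candidates in the akt-2 window, with signals from 7.94 to 9.15, were nearer to the 5' ends of ceh-89 or ceh-90. akt-1, the other AKT gene, had its strongest candidate farther away, 2351 bp upstream (chromosome V 10246386 to 10246721), with a signal of 15.5. That candidate ranked 2096 in the pooled list and 2716 in replicate 1, and none of the 3 pooled candidates at akt-1 overlapped a candidate of replicate 2.

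sgk-1, a kinase related to AKT that acts downstream of PDK-1, had its strongest candidate 4045 bp upstream of transcript W10G6.2a.1 (chromosome X 16265999 to 16266334). The 5' end of mua-6 was nearer, at 481 bp. The signal was 17.1, and the candidate ranked 1495 in the pooled list and 4723 in replicate 1 but 24775 in replicate 2. An intronic candidate 752 bp downstream of the 5' end of W10G6.2a.2 had the opposite pattern, with a pooled signal of 9.34 at rank 12525, rank 1765 in replicate 2 and no counterpart in replicate 1.

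The sequences below are those within 100 bp of the summit at the 3 genes that followed daf-16 in signal, shown because each candidate overlapped one in both replicates. They are read on the plus strand of WBcel235, the assembly of ce11, from the RefSeq genome. Capitals mark matches to 3 searched motifs on either strand: GAGAGA, a repeat of GA; TGACAG, the core bound by MEIS proteins, the family of UNC-62; and GTAAACA, a core that FOXO proteins such as DAF-16 bind. Matches of GAGAGA can overlap each other. Distances between a match and the summit are measured to the middle of the match.
pdk-1 upstream, chrX:1319826-1320026: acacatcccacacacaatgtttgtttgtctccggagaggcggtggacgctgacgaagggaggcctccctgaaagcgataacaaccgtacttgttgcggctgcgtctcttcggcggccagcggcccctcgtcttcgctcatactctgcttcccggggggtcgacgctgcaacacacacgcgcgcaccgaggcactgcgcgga
akt-2 upstream, chrX:14146955-14147155: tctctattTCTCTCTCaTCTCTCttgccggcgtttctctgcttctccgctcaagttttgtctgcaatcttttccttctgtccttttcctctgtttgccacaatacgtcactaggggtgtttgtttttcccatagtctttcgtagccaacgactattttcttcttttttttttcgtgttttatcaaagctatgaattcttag
sgk-1 far upstream, chrX:16266067-16266267: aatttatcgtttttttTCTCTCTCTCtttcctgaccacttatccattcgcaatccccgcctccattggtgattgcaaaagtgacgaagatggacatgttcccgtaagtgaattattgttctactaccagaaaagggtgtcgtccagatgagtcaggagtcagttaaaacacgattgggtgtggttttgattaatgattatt

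The pdk-1 stretch held none of the motifs and was 62.7% G or C, higher than 99.9% of pooled candidates; it was the most GC-rich of the 53. The akt-2 and sgk-1 stretches were 39.8% and 40.3% G or C and each held 3 GAGAGA matches, as TCTCTC on the strand shown. The middles of the matches lay 81 to 90 bp from the akt-2 summit and 78 to 82 bp from the sgk-1 summit. The matches covered 14 bases at akt-2 and 10 bases at sgk-1. Coverage as large as at akt-2 was found in 1.77% of pooled candidates and 17.9% of reproducible peaks. For sgk-1 these shares were 3.42% and 26.3%. The median GC content was 39.3% for the 53 candidates and 36.3% for all pooled candidates.

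**Figure D2:**
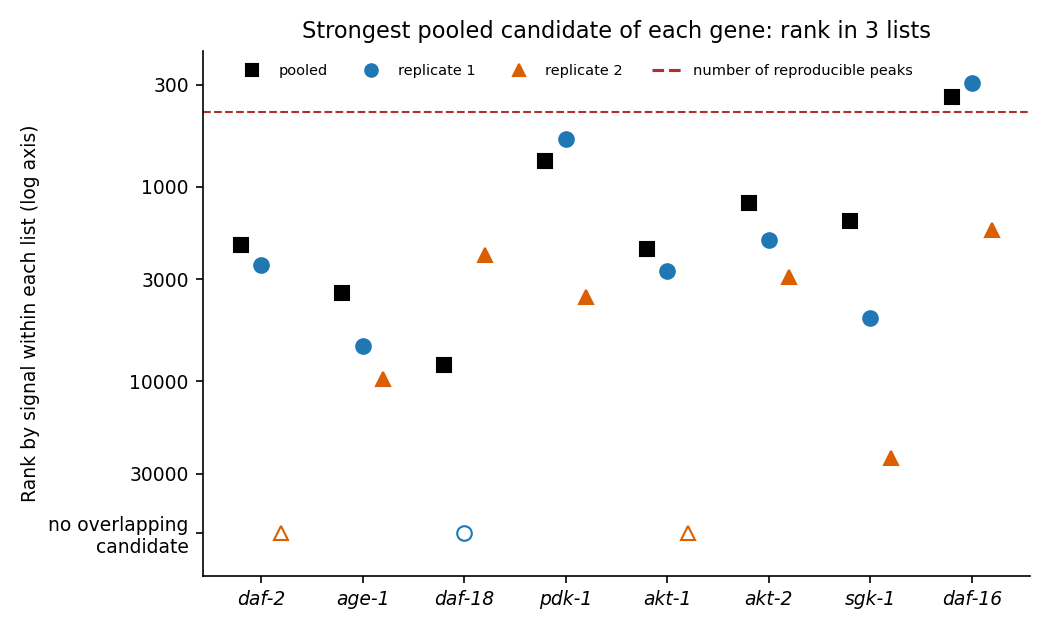
Rank by signal (vertical log axis, strongest at the top) of the strongest pooled candidate of each gene in the pooled list (squares), in replicate 1 (circles) and in replicate 2 (triangles). Open symbols at the bottom mark lists with no overlapping candidate, and the dashed line is the number of reproducible peaks, 414. All 5 candidates seen in both replicates, at age-1, pdk-1, akt-2, sgk-1 and daf-16, ranked higher in replicate 1 than in replicate 2.

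daf-16 (chromosome I 10750498 to 10776703, plus strand) spans 26.2 kb, with 11 transcripts from 7 different 5' ends. Its reproducible peak lay in an intron, 1628 bp upstream of the 5' end of transcript R13H8.1a.1 (10769712 to 10770047). Relative to the other 5' ends it lay 3119 bp upstream of R13H8.1e.1, 6777 bp downstream of R13H8.1b.1 and 18920 bp downstream of R13H8.1d.1, so it was nearest to the later 5' ends and far from the earliest. The signal was 30.6 in the pooled list, 22.1 in replicate 1 and 8.47 in replicate 2. The ranks were 347 of 28005 in the pooled list, 294 of 30000 in replicate 1 and 1678 of 30000 in replicate 2. The peak was thus among the 414 highest of replicate 1 and not of replicate 2. Its −log10 q value was 2.40, the highest in the pooled list. All 414 reproducible peaks share that value, and so do some candidates outside the reproducible set.

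The signal of 30.6 was near the lower limit of the reproducible set, 28.2, whose median was 37.5. The member nearest below the limit was pdk-1, at 22.3. daf-16 is long, and among the 198 genes with a window of at least 30 kb the share with a reproducible peak was 5.56%, a limit set after the values were seen. In replicate 1 the pooled peak overlapped 2 candidates, at ranks 294 and 2268. A neighbouring intronic candidate 2726 bp upstream of R13H8.1a.1 had a pooled signal of 13.5 and ranked 1380 in replicate 2, above the reproducible place, but 13346 in replicate 1.

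The replicates differed in where daf-16 signal was highest. In replicate 2 the strongest candidate of the window lay in another intron, 2289 bp upstream of the 5' end of R13H8.1b.1, with a signal of 11.1 at rank 575. Its pooled counterpart had a signal of 9.60 at rank 11558, and no replicate 1 candidate overlapped it. The pooled candidates at 5' ends of daf-16 were weaker than the reproducible peak. The strongest of them, with a signal of 10.5, lay 547 bp past the 5' end of R13H8.1a.1. It was outside the promoter span of that transcript but inside that of R13H8.1e.1. The others had signals of 8.15 at 54 bp past R13H8.1b.1 and 6.83 at 869 bp before R13H8.1b.1. Upstream of the whole gene the window held 1 pooled candidate, with a signal of 7.88.

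**Figure D3:**
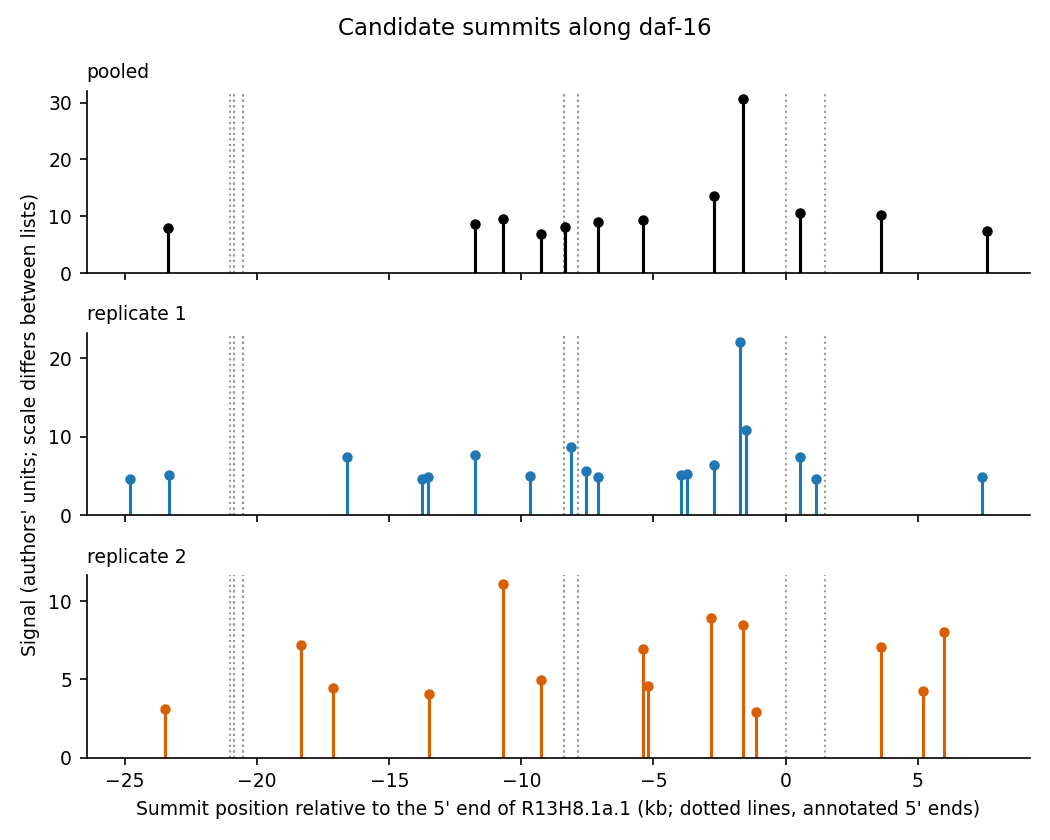
Summits along daf-16 in the pooled list (top), replicate 1 (middle) and replicate 2 (bottom), with the position relative to the 5' end of R13H8.1a.1 in kb on the horizontal axis and the authors' signal on the vertical axes, whose scales differ. Dotted lines mark the annotated 5' ends. The highest point of the pooled list and of replicate 1 lies just upstream of R13H8.1a.1, and that of replicate 2 lies upstream of R13H8.1b.1.

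The summit of the daf-16 peak lay at the edge of a stretch rich in GAGAGA, a repeat of the dinucleotide GA. Within 100 bp of it, 19 GAGAGA matches, many of them overlapping, covered 46 of 201 bases. The middles of these matches lay 3 to 45 bp from the summit, all at lower coordinates. That of a TGACAG match lay 53 bp away on the same side. The measure of coverage was added after the values were seen. Coverage as large was found in 24 of all pooled candidates (0.0857%) and in 6 of the 414 reproducible peaks (1.45%). The part of this repeat in the signal was not tested. The stretch was 49.8% G or C, above 96% of pooled candidates. GTAAACA was not within 100 bp of the summit.

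Across the 53 candidates, GAGAGA lay within 100 bp of the summit in 10 (18.9%, exact Clopper-Pearson 95% interval 9.44 to 32), against 14.6% of all pooled candidates. These 10 were 4 at daf-16, 4 at daf-2, and 1 each at akt-2 and sgk-1. TGACAG was found in 4 of the 53 candidates (7.55%, interval 2.09 to 18.2, against 7.97%). Of these, 2 were weak candidates at daf-2 and 1 was the daf-16 peak. The other lay downstream of akt-2, with a signal of 9.15, and was nearest to the 5' end of ceh-90. GTAAACA was also found in 4 (7.55%, interval 2.09 to 18.2, against 2.42%). These 4 were the strongest candidate of akt-1, with the match 35 bp from the summit, a candidate downstream of pdk-1 and 2 at daf-2. Those at daf-2 were weak, with signals of 7.25 and 7.16, and the first overlapped no candidate of either replicate. No candidate of replicate 2 in the 8 windows held GTAAACA, and in replicate 1 there were 2, at pdk-1 and akt-1. The intervals cover counting error only.

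By position relative to the genes, 20 of the 53 candidates lay in introns, 15 upstream, 8 in coding exons, 8 downstream, 1 in a 3' UTR and 1 in another exon. The member's own 5' end was the nearest protein-coding 5' end for 34 candidates, among them 15 of 18 at daf-2 and 11 of 12 at daf-16. At the smaller genes neighbours were often nearer: the member was nearest for 3 of 4 candidates at pdk-1 and for 1 each at age-1, daf-18, akt-1, akt-2 and sgk-1. Promoter spans of the members' own transcripts held 6 candidates (11.3%, interval 4.27 to 23), and those of any protein-coding gene 8 (15.1%, interval 6.75 to 27.6). Among all pooled candidates, taken without a limit to gene windows, 28.9% lay in a promoter span. The long windows of daf-2 (56.3 kb) and daf-16 (36.2 kb) held 18 and 12 of the 53 candidates. The part of window length in these shares was not tested.

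Overlap between the replicates at these genes was close to that over the whole lists. Of the 53 candidates, 15 overlapped a candidate of both replicates by at least 1 bp (28.3%, interval 16.8 to 42.3), against 30.9% of all pooled candidates. Neighbouring pooled candidates can share a counterpart, and each is counted, here as in the background: a pair at pdk-1, a pair at sgk-1 and, in replicate 2, a pair at daf-2 did so. Replicate 1 accounted for 38 (71.7%, against 67.4%) and replicate 2 for 28 (52.8%, against 53.7%), and 2 had a counterpart in neither. Compared directly, 19 of the 61 replicate 1 candidates in the windows overlapped one of replicate 2 (31.1%, against 31.6% over the whole list), and 18 of the 59 replicate 2 candidates overlapped one of replicate 1 (30.5%, against 31.9%).

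The genes were also compared by rank in each replicate. With each replicate limited to its 414 strongest peaks, daf-16 was the only one of the 8 in replicate 1 (background 4.82%), and there was none in replicate 2 (background 4.81%). Among the 1000 strongest, replicate 1 had pdk-1 and daf-16 (background 11%) and replicate 2 had daf-16 (background 10.9%), but the daf-16 candidates were at different places. Among the 2000 strongest, replicate 1 had pdk-1, akt-2 and daf-16 (background 20.3%) and replicate 2 had pdk-1, sgk-1 and daf-16 (background 20.9%). At that limit the daf-16 place upstream of R13H8.1a.1 was in both, and the pdk-1 candidates were upstream in replicate 1 and intronic in replicate 2.

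The number of candidates per kb also varied with the replicate. In the pooled list it ran from 0.169 per kb at age-1 to 0.331 per kb at daf-16, higher than in 26.1% and 65.1% of protein-coding genes. At akt-2 the density was 0.209 per kb in replicate 1 and 0.557 per kb in replicate 2, above 32.9% and 94% of genes in those lists. At daf-16 it was 0.497 per kb in replicate 1 and 0.387 per kb in replicate 2, above 88.5% and 73.8% of genes. The strongest signal in the window was higher than that of 95.9% of protein-coding genes at daf-16, 91.8% at pdk-1 and 87.1% at akt-2, and of 39.4% at daf-18. These windows are longer than most, with a median of 17 kb against 12 kb, and a longer window has more chances to hold a strong peak.

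**Figure D4:**
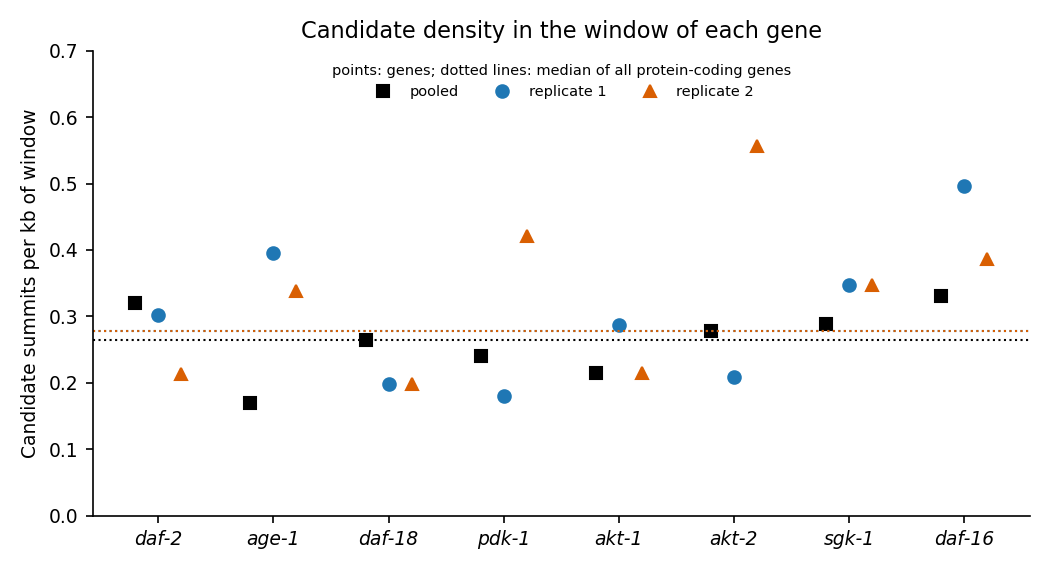
Candidate summits per kb of window (vertical axis) for each of the 8 genes in the pooled list (squares), replicate 1 (circles) and replicate 2 (triangles). Dotted lines are the medians over all protein-coding genes, 0.264 per kb in the pooled list and 0.278 per kb in each replicate list. The order of the genes differs between the replicates, with akt-2 highest in replicate 2 and daf-16 in replicate 1.

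Other genes of the pathway were taken from 4 lists, of which 92 of 95 names matched a protein-coding gene. A reproducible peak lay in the window of 7 of the 92, beside 4.94% of all protein-coding genes. Of 39 insulin-like ligand genes, 3 had one (7.69%). ins-39 had a peak 641 bp upstream of its 5' end (chromosome X 1344894 to 1345229, signal 48.8, ranks 83 and 633 in replicates 1 and 2). The ins-13 peak was the strongest of those at the 7 genes, with a signal of 63.6 and ranks of 34 and 131, and lay downstream of the gene. The ins-17 peak (signal 56.2) also lay downstream and was nearer to the 5' end of the ribosomal protein gene rps-1, 247 bp away. The next ligand genes were ins-8 and ins-2, with top signals of 20.9 and 15.2.

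None of the 10 adaptor and other kinase genes had a reproducible peak in its window. The highest signals there were 18.5 at rsks-1, the worm S6 kinase, and 14.9 at pptr-1, a regulatory subunit of the phosphatase PP2A, with candidates 1511 and 1530 bp upstream. The pptr-1 candidate ranked 646 in replicate 2 and 4262 in replicate 1.

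Of 24 genes for DAF-16 regulators and partners, 3 had a reproducible peak (12.5%). ftt-2, a 14-3-3 protein that binds DAF-16, had one 498 bp upstream with a signal of 31.3, at rank 119 in replicate 1 and 7196 in replicate 2. The smk-1 peak had a signal of 37.3 in the pooled list, 23.1 in replicate 1 and 14.5 in replicate 2. It lay 1294 bp upstream of smk-1, but 378 bp from the 5' end of vps-60. lin-14, a regulator of larval timing, had a peak 158 bp upstream with a signal of 33.6, at ranks 1019 and 97. daf-12, a nuclear receptor of the dauer decision, had an intronic candidate of 28 at pooled rank 424, just below the reproducible set, and aak-2, a catalytic subunit of AMP-activated kinase, one of 23.

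Of 19 known DAF-16 target genes, icl-1, which encodes the glyoxylate cycle enzymes isocitrate lyase and malate synthase in 1 protein, was the only one with reproducible peaks (5.26%). One lay 9 bp upstream of its 5' end (signal 32.8, ranks 437 and 623). The other, with a signal of 29.6, lay 30 bp inside srh-2. The highest candidates of the other targets were 24.5 at cki-1, nearer to cki-2, and 22.1 at pck-1, nearer to btb-5.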

How the data were processed

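The values used are from peak lists in narrowPeak form on build ce11. Per the accompanying notes and labels, the authors made candidate lists (peaks and background as input for IDR) from each replicate's alignment, or both pooled, with a control file, and the optimal IDR set from those. The authors' deposited lists give each peak a signal value and a −log10 q value. Read depth, aligner, peak caller and IDR threshold: not given in the sources used here. Lists on ce10 were not used, and no coordinates were converted.

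Gene models were those of Ensembl release 115 and the sequence that of RefSeq, both of WBcel235; all ce11 peaks lay inside its chromosomes. Of the deposited peaks, those in the reproducible list equal pooled candidates in position and signal. Analyses used Python 3.11.15, NumPy 2.4.6 and SciPy 1.17.1. Coordinates count from 1, ranks follow signal, and an overlap is at least 1 bp. Where a peak overlapped several candidates of a replicate, the highest-ranked is given. Window, overlap, 5' end and motif steps were tested on simulated data.

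The members and lists were chosen with earlier results of these data known. Named genes are the 8 members, neighbours whose 5' end was nearer to a member's peak, and, from each list, every gene with a reproducible peak and up to 2 more by signal. Of the listed names, ins-38, lin-4 and dod-8 matched no protein-coding gene. Alternatives were other windows, overlaps, promoter and motif spans, rank limits, and leaving out each replicate.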

Additional observations from a re-analysis of the deposited data

How the results depend on the processing

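Of 44 alternatives over 11 results, 33 changed little: a count or rank stayed within 1.5 times the reported one, and a share or density within its 95% interval. Those intervals are wide: promoter spans of 2000 bp upstream to 500 bp downstream held 22.6% against 11.3%, a 200 bp search found TGACAG in 15.1% against 7.55%, and summits within 100 bp in both replicates were found for 17% against 28.3%. A count that changed little can also hide a change of genes. Without replicate 1, 5 other pathway genes had one of the 414 highest peaks. Of the 7 with a reproducible peak, only ins-13, smk-1 and lin-14 were among them. Without replicate 2 there were 6, which were the 7 except lin-14. The exceptions follow, and the cause was not tested. With the reproducible peaks above the median of their own signal, 0 members and 3 other pathway genes (ins-13, ins-17 and ins-39) had a peak. When either replicate was left out, members with one of the 414 highest peaks numbered 0 to 1, with 0 without replicate 1, and the best rank of a member ranged from 294 to 575, at daf-16 in both. Gene bodies alone held 30 candidates and the pooled candidates above the median of the whole list 24. Promoter spans of 500 bp upstream to 100 bp downstream held 3.77% of candidates. TGACAG was in 0% within 50 bp of the summit, and GTAAACA in 0% to 3.28% when either replicate was left out. Members with a highly ranked peak in either replicate rose from 1 to 2 and 4 with the 1000 and 2000 highest peaks, which follows from the larger lists. No paired analysis was possible because the series has 1 group. The read depth is unknown, so counting error in a peak's signal is not given.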
